A study of Mus musculus with 23 samples.

Results

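The mammary keratins described here are 10 genes: Krt5, Krt14, Krt15, Krt17 and Krt6a, taken as keratins of basal cells, and Krt7, Krt8, Krt18, Krt19 and Krt23, taken as keratins of luminal cells. They were chosen by name, without regard to case, and all 10 were found among the 24391 genes of the table of normal cells, the 24511 of the PY230 tumour table and the 24322 of the C3-1-TAg tumour table. The study profiled polyA RNA of about 2000 sorted mouse mammary cells per library in 23 libraries of 9 groups. Normal C57BL6J mammary gland gave adult basal cells, mature luminal cells, luminal progenitors and, from E18 embryos, fetal mammary stem cells (fMaSC), with 2 libraries each. PY230, a single mouse mammary tumour cell line, was transplanted into syngeneic C57BL6J mice, and its tumours gave basal SOX10 high, luminal SOX10 high and luminal SOX10 low cells, also with 2 libraries each. The C3-1-TAg tumours arose spontaneously in adult FVB mice that carry an SV40 T antigen transgene active in the mammary epithelium. They gave 5 libraries of SOX10 high cells and 4 of SOX10 low cells, and every title adds the word basal. Each table was normalized by itself and tests stayed within a table. The design text calls the libraries biological replicates, without naming the animal or tumour behind each.

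Keratins are the intermediate filament proteins of epithelial cells, and a filament needs a type I keratin paired with a type II keratin. In the mammary gland the outer basal and myoepithelial layer is known for the type II keratin Krt5 and its type I partner Krt14, and the inner luminal layer for the type II keratin Krt8 and its type I partner Krt18. Krt15 and Krt17 are further type I keratins of basal cells, Krt6a is a type II keratin known in skin for its induction after wounding, Krt7 is a type II and Krt19 a type I keratin of simple and ductal epithelia, and Krt23 is a type I keratin.

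The genes lie in the type I cluster of chromosome 11 (Krt14, Krt15, Krt17, Krt19 and Krt23) and the type II cluster of chromosome 15 (Krt5, Krt6a, Krt7 and Krt8). Krt18, a type I gene, is the next coding gene to Krt8 on chromosome 15, Krt6a is next to Krt5, and Krt15 is next to Krt19. Among the normal populations the partner genes Krt14 and Krt5 were both highest in adult basal cells, and Krt8 and Krt18 in the luminal populations. Promoters of these 4 genes are shown from RefSeq on build GRCm38.p6. Each run has 250 bases before and 50 after the annotated start of the gene. The positions are chr11:100205981-100206280 (minus strand) for Krt14, chr15:101712856-101713155 (minus) for Krt5, chr15:102004293-102004592 (minus) for Krt8 and chr15:102027966-102028265 (plus) for Krt18. The authors' values rest on mm9, so these positions are not those of the deposited tables. Capitals mark matches on either strand to the TATA box spelled TATAAA, to the GC box spelled GGGCGG, to the AP-1 motif spelled TGANTCA or to the AP-2 motif spelled GCCNNNGGC.
Krt14: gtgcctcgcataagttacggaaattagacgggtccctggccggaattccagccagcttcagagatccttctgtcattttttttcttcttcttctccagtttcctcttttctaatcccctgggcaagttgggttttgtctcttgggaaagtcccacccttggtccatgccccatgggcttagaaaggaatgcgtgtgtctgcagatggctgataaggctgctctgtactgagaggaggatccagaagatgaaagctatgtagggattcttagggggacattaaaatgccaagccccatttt
Krt5: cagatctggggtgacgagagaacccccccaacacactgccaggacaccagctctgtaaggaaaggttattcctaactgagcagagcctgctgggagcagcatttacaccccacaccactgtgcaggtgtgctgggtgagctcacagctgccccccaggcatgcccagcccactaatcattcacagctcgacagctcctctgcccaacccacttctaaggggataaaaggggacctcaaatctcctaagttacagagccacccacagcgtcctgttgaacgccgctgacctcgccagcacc
Krt8: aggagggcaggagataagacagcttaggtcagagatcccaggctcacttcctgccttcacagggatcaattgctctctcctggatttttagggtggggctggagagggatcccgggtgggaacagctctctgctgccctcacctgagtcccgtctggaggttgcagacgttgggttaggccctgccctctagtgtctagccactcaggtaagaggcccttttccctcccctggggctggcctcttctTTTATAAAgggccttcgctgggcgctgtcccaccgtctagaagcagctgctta
Krt18: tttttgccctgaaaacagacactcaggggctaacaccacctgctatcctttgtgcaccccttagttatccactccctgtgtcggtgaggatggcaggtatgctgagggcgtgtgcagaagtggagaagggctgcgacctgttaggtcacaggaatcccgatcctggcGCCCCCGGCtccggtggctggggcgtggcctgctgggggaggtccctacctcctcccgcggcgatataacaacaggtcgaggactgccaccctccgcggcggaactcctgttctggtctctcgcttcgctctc
TATAAA matched the Krt8 run at 2 overlapping places on opposite strands, and 13.6% of the 32851 RefSeq promoters of this length hold it. The first bases of these matches lie at -3 and -1 from the annotated start, so the matches span it. GCCNNNGGC matched the Krt18 run at 1 place and is in 16.6% of the promoters. None of the 4 motifs was in the Krt14 or Krt5 run as spelled here, and GGGCGG is in 35.7% and TGANTCA in 7.81% of the promoters. Promoters were given for 6 of the 10 genes. In that of Krt7, not printed, GGGCGG matched at 4 places and GCCNNNGGC at 2, and 1 place held parts of both motifs.

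Some of these genes share sequence with close relatives, which bears on how single-end reads of 50 or 75 bp were assigned. Of all 50-base windows of the longest annotated transcript, 57.5% in Krt6a also occur in transcripts of other genes, most of them in Krt6b (39.9%). For Krt8 the share is 29.7%, with 26.9% in the pseudogene Krt8-ps, and for Krt14 it is 14.4%, with 11.4% in Krt16. It is 12.2% for Krt5, 3.99% for Krt17, under 1% for Krt15, Krt7 and Krt18, and 0 for Krt19 and Krt23. The values of Krt6a, Krt8, Krt14, Krt5 and Krt17 are to that extent uncertain.

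The libraries held 10056 to 12504 genes at 1 RPKM (a read number divided by gene length and by library size) or more. No source used here gives read totals, so the depth behind each RPKM is unknown. Sox10, the gene named in the tumour labels, was at 72.0 and 78.3 RPKM in PY230 basal SOX10 high, 101 and 66.9 RPKM in luminal SOX10 high and 13.6 and 11 RPKM in luminal SOX10 low libraries. In C3-1-TAg tumours it was at 91.9 to 164 RPKM in SOX10 high and 2.10 to 40.9 RPKM in SOX10 low libraries. Adult basal libraries carried the basal and myoepithelial markers at a summed 481 to 1455 RPKM, but their mature luminal markers, at a summed 1094 to 1568 RPKM, overlapped the 1018 to 1181 RPKM of luminal progenitors, and their luminal progenitor markers summed to 51.0 to 52.2 RPKM, against 4054 to 4683 RPKM in luminal progenitors. The part of luminal RNA in the luminal keratin levels of adult basal libraries was not tested. Skin keratinocyte markers summed to at most 27.6 RPKM in any normal library and 35.2 RPKM in any tumour library.

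In normal cells the paired basal keratins separated adult basal cells from every other population. Krt14 was at 1213 and 532 RPKM in adult basal, 3.29 and 2.26 RPKM in mature luminal, 1.96 and 4.98 RPKM in luminal progenitor and 107 and 112 RPKM in fMaSC libraries. Krt5 was at 65.9 and 30.0 RPKM in adult basal, 0.0604 and 0.0978 RPKM in mature luminal, 0.0531 and 0.508 RPKM in luminal progenitor and 5.08 and 5.69 RPKM in fMaSC libraries. For both genes adult basal cells were highest, fMaSC stood between, and the luminal populations were lowest and overlapped each other. Krt17 was at 873 and 425 RPKM in adult basal, 0.203 and 0.188 RPKM in mature luminal, 5.88 and 6.69 RPKM in luminal progenitor and 42.2 and 36.7 RPKM in fMaSC libraries. It followed the same order, except that luminal progenitors stood above mature luminal cells without overlap. Adult basal replicate 1 exceeded replicate 2 for all 10 keratins.

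Krt15 and Krt6a departed from that order. Krt15 was at 134 and 119 RPKM in adult basal, 13.7 and 9.89 RPKM in mature luminal, 1.91 and 2.40 RPKM in luminal progenitor and 6.06 and 5.89 RPKM in fMaSC libraries. Adult basal cells were again highest, but mature luminal cells came next, above fMaSC, with luminal progenitors lowest and no overlap between groups. Krt6a was at 101 and 46.8 RPKM in adult basal, 428 and 441 RPKM in mature luminal, 91.4 and 47.7 RPKM in luminal progenitor and 2.52 and 2.33 RPKM in fMaSC libraries. Although listed with the basal keratins, it was highest in mature luminal cells, and adult basal and luminal progenitor libraries overlapped.

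**Figure D1:**
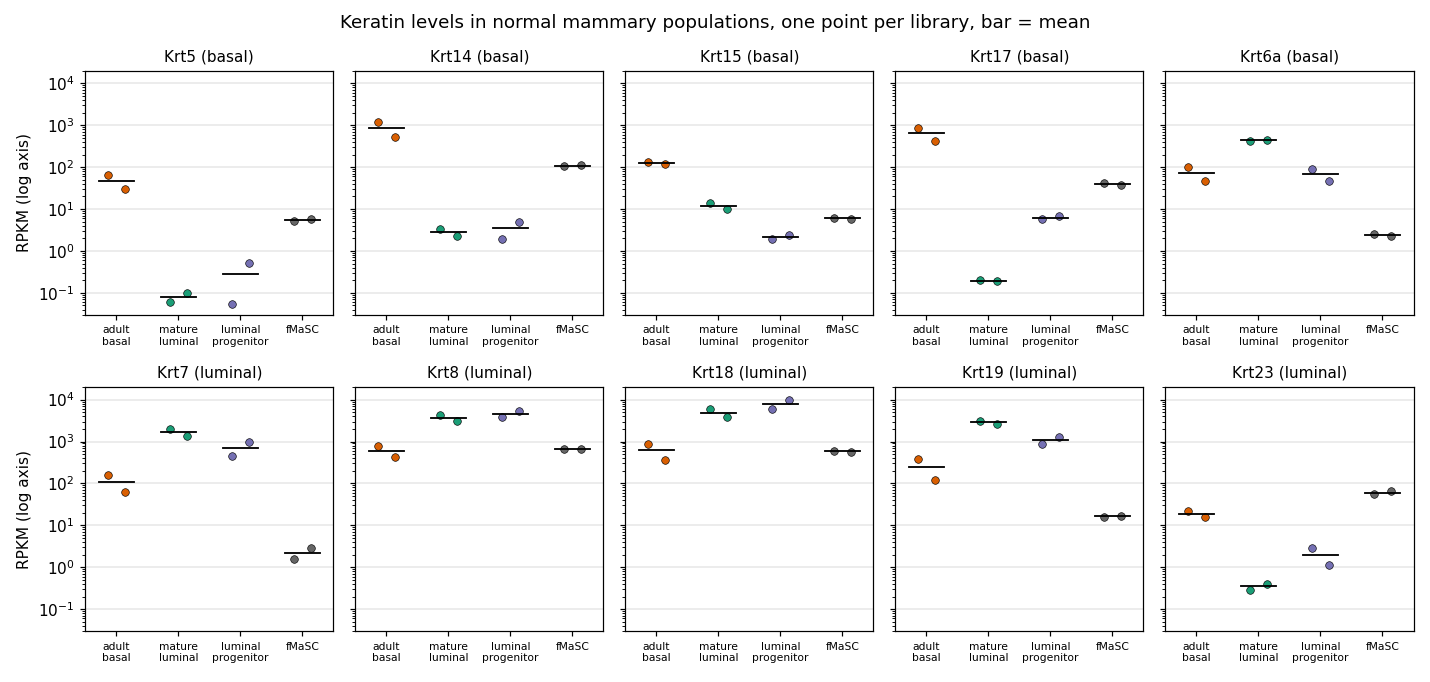
RPKM on a log axis of each keratin in adult basal, mature luminal, luminal progenitor and fMaSC libraries; points are the 2 libraries of a group and bars their mean. Krt14, Krt5 and Krt17 stand highest in adult basal cells, Krt6a in mature luminal cells and Krt23 in fMaSC.

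Among the luminal keratins, the partners Krt8 and Krt18 were the most abundant in the luminal populations. Krt18 was at 879 and 356 RPKM in adult basal, 6083 and 3765 RPKM in mature luminal, 5914 and 9746 RPKM in luminal progenitor and 606 and 576 RPKM in fMaSC libraries. Krt8 was at 762 and 437 RPKM in adult basal, 4379 and 3076 RPKM in mature luminal, 3944 and 5328 RPKM in luminal progenitor and 660 and 672 RPKM in fMaSC libraries. For both genes mature luminal cells and luminal progenitors overlapped, and so did adult basal cells and fMaSC.

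The simple-epithelium keratins Krt7 and Krt19 were low in fMaSC. Krt7 was at 158 and 62.1 RPKM in adult basal, 1997 and 1390 RPKM in mature luminal, 448 and 974 RPKM in luminal progenitor and 1.58 and 2.91 RPKM in fMaSC libraries. Krt19 was at 386 and 121 RPKM in adult basal, 3126 and 2642 RPKM in mature luminal, 862 and 1302 RPKM in luminal progenitor and 16.2 and 16.9 RPKM in fMaSC libraries. Both rank as mature luminal, luminal progenitor, adult basal and fMaSC from high to low, with no overlap between groups. Krt23 was at 21.5 and 15.6 RPKM in adult basal, 0.290 and 0.406 RPKM in mature luminal, 2.86 and 1.15 RPKM in luminal progenitor and 54.7 and 64.3 RPKM in fMaSC libraries. Its levels go against its place among the luminal keratins: fMaSC were highest, adult basal cells next, and mature luminal cells lowest.

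Adult basal cells were set against fMaSC with limma on log2(RPKM + 1), the scale of all fold changes below, with Benjamini-Hochberg adjustment over all genes tested and a threshold of 0.05. All 10 keratins passed the filter on low values in each of the 3 tables. Of the 10, 7 were higher and 1 lower in adult basal cells, where 60.3% of the 12553 genes tested were called, 23.4% higher and 36.9% lower. Krt7 changed most (log2 fold change 4.98 ± 0.52 SE, adjusted p = 0.000251), and Krt14 rose by 2.86 ± 0.45 (adjusted p = 0.00139). Krt23 fell, with a log2 fold change of -1.64 ± 0.32 (adjusted p = 0.00381). Krt8 (-0.21 ± 0.33, adjusted p = 0.613) and Krt18 (-0.08 ± 0.47, adjusted p = 0.900) did not pass. The median log2 fold change was 3.92 over the 5 basal and -0.08 over the 5 luminal keratins, against -0.27 over all genes. In these data a lower level in a bulk library cannot be told apart between fewer cells of a type and less RNA per cell.

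Luminal progenitors differed from fMaSC in all 10 keratins by the same fit, 5 higher and 5 lower, where 50.6% of all genes tested were called, 15% higher and 35.5% lower. Krt7 rose by 7.70 ± 0.52 (adjusted p = 4.74e-05), Krt19 by 5.92 ± 0.49 (adjusted p = 0.000108) and Krt18 by 3.68 ± 0.47 (adjusted p = 0.000673), while Krt14 had a log2 fold change of -4.71 ± 0.45 (adjusted p = 0.000193). Krt6a was the 1 basal keratin that rose, by 4.29 ± 0.41 (adjusted p = 0.000183). Mature luminal cells against fMaSC gave 6 higher and 4 lower, with 56.4% of all genes called, 14.7% higher and 41.7% lower. Krt7 again changed most (9.04 ± 0.52, adjusted p = 2.01e-05), and Krt6a rose by 6.99 ± 0.41 (adjusted p = 2.04e-05). Krt15 rose by 0.86 ± 0.22 (adjusted p = 0.0138), a call lost without mature luminal replicate 1 (adjusted p = 0.0882), fMaSC replicate 1 (0.0697) or fMaSC replicate 2 (0.0771). The 3 comparisons with fMaSC share its libraries. The median log2 fold change of all genes was below 0 in each, at -0.27 for adult basal, -0.53 for mature luminal and -0.39 for luminal progenitor cells, and 0.02, 0.00 and 0.04 after quantile normalization. The keratin fold changes quoted above are not adjusted for those shifts. The share of called genes that were higher was 38.9%, 26.1% and 29.7% in that order, and 50.6%, 49.2% and 50.4% after quantile normalization.

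Adult basal cells against the adult luminal populations gave the lineage contrast of these genes. Against luminal progenitors 5 of the 10 were higher and 4 lower, where 35.5% of all genes were called, 21% higher and 14.5% lower. Krt14 was higher by 7.58 ± 0.45 (adjusted p = 8.48e-05) and Krt18 had a log2 fold change of -3.76 ± 0.47 (adjusted p = 0.00144), whereas Krt6a, at 0.06 ± 0.41, did not pass (adjusted p = 0.929). The calls of Krt7 (-2.73 ± 0.52, adjusted p = 0.00724) and Krt19 (-2.29 ± 0.49, adjusted p = 0.0115) were lost without luminal progenitor replicate 2 (adjusted p = 0.0523 and 0.0778). Against mature luminal cells all 10 passed, 5 higher and 5 lower, where 48.6% of all genes were called, 28.8% higher and 19.8% lower. Krt17 had the largest value of the 10, 9.0 ± 0.32 (adjusted p = 1.89e-05), and Krt6a was lower by the fit (-2.64 ± 0.41, adjusted p = 0.00199). Krt23 was higher in adult basal cells in both comparisons, by 2.75 ± 0.32 (adjusted p = 0.00111) against luminal progenitors and 3.84 ± 0.32 (adjusted p = 0.000183) against mature luminal cells. Against mature luminal cells, where it was at 0.290 and 0.406 RPKM, its value ran from 2.13 to 5.37 over the alternatives. The median log2 fold change over the basal keratins was 5.34 against luminal progenitors and 5.40 against mature luminal cells, and over the luminal keratins -2.73 and -3.09. Of the called genes 59.3% and 59.2% were higher in adult basal cells, and 48.9% and 46.7% after quantile normalization.

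Mature luminal cells differed from luminal progenitors in 4 of the 10 keratins, 2 higher and 2 lower, where 22.1% of all genes were called, 8.63% higher and 13.4% lower. Krt6a rose by 2.70 ± 0.41 (adjusted p = 0.00468) and Krt15 by 2.01 ± 0.22 (adjusted p = 0.00167), while Krt17 had a log2 fold change of -2.61 ± 0.32 (adjusted p = 0.00246). Krt23 (-1.10 ± 0.32) lay at the threshold (adjusted p = 0.0496), and leaving out mature luminal replicate 1, mature luminal replicate 2 or luminal progenitor replicate 1 gave adjusted p = 0.189, 0.160 and 0.221. Krt7 (1.33 ± 0.52, adjusted p = 0.113) and Krt19 (1.44 ± 0.49, adjusted p = 0.0782) were above in both mature luminal libraries without passing, but passed with only the compared groups fitted (adjusted p = 0.0317 and 0.0103). Of the called genes 39.1% were higher in mature luminal cells, and 49.5% after quantile normalization.

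In PY230 tumours the basal keratins marked the basal SOX10 high cells. Krt5 was at 388 and 391 RPKM in basal SOX10 high, 10.8 and 17.2 RPKM in luminal SOX10 high and 6.98 and 3.45 RPKM in luminal SOX10 low libraries. Krt14 was at 217 and 137 RPKM in basal SOX10 high, 8.39 and 11.5 RPKM in luminal SOX10 high and 5.54 and 3.05 RPKM in luminal SOX10 low libraries. Krt17 was at 343 and 317 RPKM in basal SOX10 high, 13.2 and 19.2 RPKM in luminal SOX10 high and 9.21 and 4.96 RPKM in luminal SOX10 low libraries. The 3 genes share this order with no overlap between groups. Krt15 was at 57.7 and 78.7 RPKM in basal SOX10 high, 3.79 and 7.48 RPKM in luminal SOX10 high and 10.1 and 5.6 RPKM in luminal SOX10 low libraries, and the luminal fractions overlapped. Krt6a was at 13.8 and 16.1 RPKM in basal SOX10 high, 15.4 and 81.6 RPKM in luminal SOX10 high and 181 and 74.2 RPKM in luminal SOX10 low libraries. As in the normal cells it did not follow the basal keratins, and the luminal SOX10 high libraries differed widely and overlapped both other groups.

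The luminal keratins ran the other way in 4 of 5 cases. Krt8 was at 85.9 and 105 RPKM in basal SOX10 high, 752 and 928 RPKM in luminal SOX10 high and 1597 and 1482 RPKM in luminal SOX10 low libraries. Krt18 was at 97.1 and 161 RPKM in basal SOX10 high, 1440 and 1667 RPKM in luminal SOX10 high and 2920 and 3125 RPKM in luminal SOX10 low libraries. Krt19 was at 68.5 and 186 RPKM in basal SOX10 high, 795 and 1818 RPKM in luminal SOX10 high and 4490 and 3868 RPKM in luminal SOX10 low libraries. In both luminal SOX10 low libraries Krt19 had the highest RPKM of all genes in the table. Krt7 was at 25.5 and 48.5 RPKM in basal SOX10 high, 199 and 410 RPKM in luminal SOX10 high and 952 and 903 RPKM in luminal SOX10 low libraries. For these 4 genes luminal SOX10 low was highest, luminal SOX10 high stood between and basal SOX10 high was lowest, with no overlap. Krt23, the exception, was at 41.7 and 45.9 RPKM in basal SOX10 high, 32.7 and 18.3 RPKM in luminal SOX10 high and 3.73 and 2.83 RPKM in luminal SOX10 low libraries, with the SOX10 high fractions highest.

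**Figure D2:**
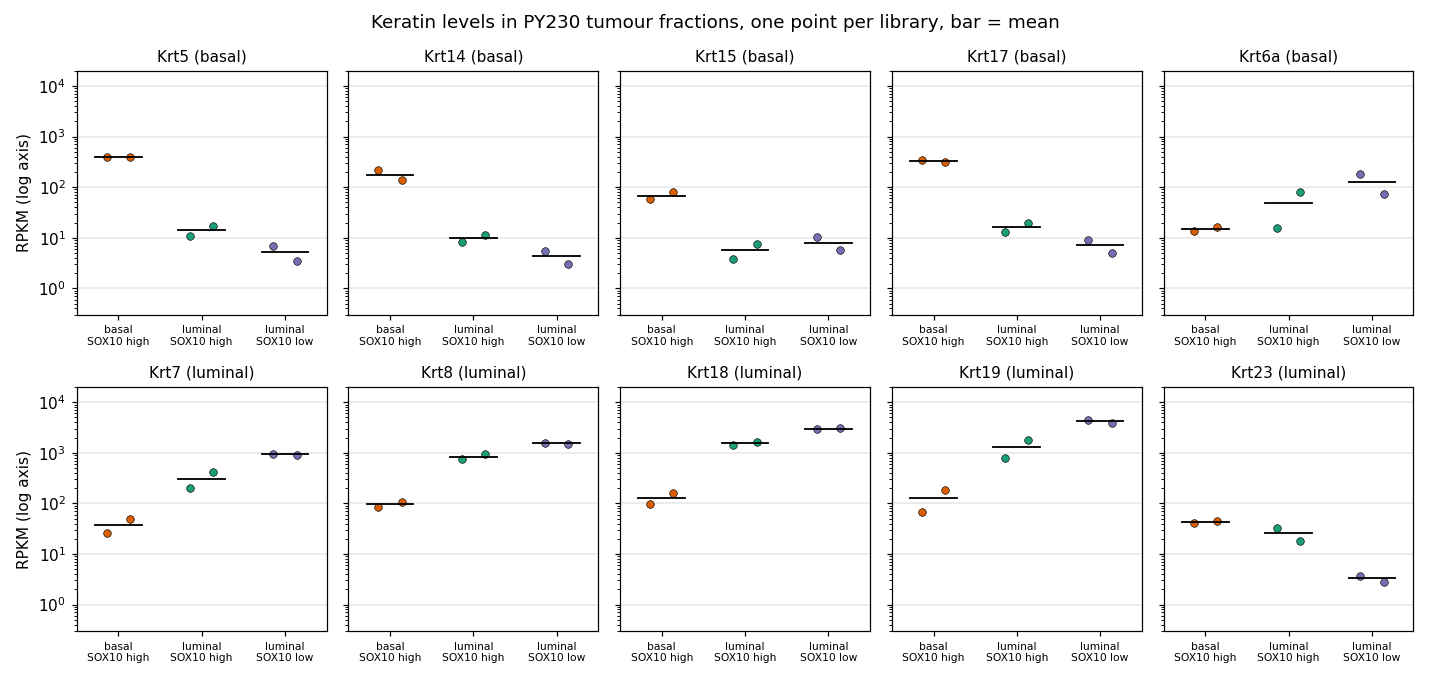
RPKM on a log axis of each keratin in PY230 basal SOX10 high, luminal SOX10 high and luminal SOX10 low libraries; points are the 2 libraries of a group and bars their mean. Krt5, Krt14, Krt15 and Krt17 are highest in basal SOX10 high cells and Krt7, Krt8, Krt18 and Krt19 in luminal SOX10 low cells, and Krt23 is lowest in luminal SOX10 low cells.

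Basal SOX10 high against luminal SOX10 high cells, both sorted as SOX10 high, gave 5 keratins higher and 4 lower, where 42% of the 13136 genes tested were called, 13.8% higher and 28.2% lower. Krt5 was higher by 4.74 ± 0.31 (adjusted p = 0.000108) and Krt17 by 4.29 ± 0.28 (adjusted p = 0.000108), while Krt18 had a log2 fold change of -3.62 ± 0.27 (adjusted p = 0.000176) and Krt8 of -3.12 ± 0.20 (adjusted p = 0.000103). Krt23 (0.81 ± 0.26) lay at the threshold (adjusted p = 0.0467), and its adjusted p was 0.136 without basal SOX10 high replicate 1, 0.181 without basal SOX10 high replicate 2 and 0.117 without luminal SOX10 high replicate 2. Krt6a (-1.21 ± 0.74) did not pass (adjusted p = 0.227), but did without luminal SOX10 high replicate 1 (-2.38, adjusted p = 0.0192). Against luminal SOX10 low cells all 10 passed, 5 higher and 5 lower, where 55.2% of all genes were called, 21.8% higher and 33.4% lower. The basal or luminal fraction and the SOX10 level differ together in this comparison and cannot be told apart. Krt5 was higher by 6.03 ± 0.31 (adjusted p = 3.58e-05) and Krt19 had a log2 fold change of -5.19 ± 0.54 (adjusted p = 0.000351). The call of Krt6a (-2.88 ± 0.74, adjusted p = 0.0152) was lost without basal SOX10 high replicate 1 (adjusted p = 0.0837), basal SOX10 high replicate 2 (0.0688) or luminal SOX10 low replicate 1 (0.0643). These comparisons share the basal SOX10 high libraries. The median log2 fold change over all genes was -0.21 against luminal SOX10 high and -0.16 against luminal SOX10 low cells, set beside 4.0 and 5.08 for the basal and -3.12 and -4.58 for the luminal keratins. The share of called genes that were higher was 32.9% against luminal SOX10 high cells, and 46.2% after quantile normalization.

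Within the luminal fraction, SOX10 high against SOX10 low cells gave 4 keratins higher and 3 lower, where 22.6% of all genes were called, 12.6% higher and 10% lower. Higher were Krt23 (2.58 ± 0.26, adjusted p = 0.00324), Krt5 (1.3 ± 0.31, adjusted p = 0.0298), Krt17 (1.12 ± 0.28, adjusted p = 0.0338) and Krt14 (1.07 ± 0.31, adjusted p = 0.0481). Lower were Krt7 (-1.69 ± 0.40, adjusted p = 0.0293), Krt18 (-0.96 ± 0.27, adjusted p = 0.0479) and Krt8 (-0.88 ± 0.20, adjusted p = 0.0256). Krt19 (-1.79 ± 0.54, adjusted p = 0.0572), Krt6a (-1.67 ± 0.74, adjusted p = 0.15) and Krt15 (-0.43 ± 0.35, adjusted p = 0.407) did not pass. Of the 7 calls 1 was kept without luminal SOX10 high replicate 1, 3 without luminal SOX10 high replicate 2, 3 without luminal SOX10 low replicate 1 and 1 without luminal SOX10 low replicate 2. Without luminal SOX10 high replicate 2 Krt6a (log2 fold change -2.84, adjusted p = 0.0145) and Krt19 (-2.39, adjusted p = 0.032) passed as well, and Krt19 passed under 5 of 13 alternatives in all. Krt23 was the 1 keratin called under every setting tried in this comparison. Along with these keratins, the luminal progenitor markers summed to 844 to 1843 RPKM in luminal SOX10 high and 158 to 171 RPKM in luminal SOX10 low libraries, and the mature luminal markers to 461 to 936 RPKM and 2035 to 2325 RPKM. Their part in the keratin differences was not tested.

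The C3-1-TAg libraries carried Krt14 and Krt17 together with luminal keratins. Some of these libraries were more alike across the SOX10 groups than within them. Over the 11948 genes tested the Pearson correlation of log2(RPKM + 1) was 0.979 between SOX10 high replicate 1 and SOX10 low replicate 2, 0.967 between SOX10 high replicate 2 and SOX10 low replicate 3 and 0.958 between SOX10 high replicates 4 and 5, and 0.798 to 0.910 for all other pairs. Whether alike libraries came from one tumour was not tested, and the fit treats all 9 as independent. All C3-1-TAg values are RPKM after 2, assumed to be an offset of that table, was taken off every value above 0. Krt14 was at 776, 415, 263, 124 and 89.7 RPKM in SOX10 high and 348, 1007, 451 and 275 RPKM in SOX10 low libraries. Krt17 was at 50.4, 305, 236, 85.0 and 48.7 RPKM in SOX10 high and 256, 123, 230 and 373 RPKM in SOX10 low libraries. Both genes varied widely within each group, and the groups overlapped. Smooth muscle myosin Myh11 was at no more than 0.371 RPKM in SOX10 high and 0.800 RPKM in SOX10 low libraries, the oxytocin receptor Oxtr at no more than 0.149 RPKM and 0.0700 RPKM, and smooth muscle actin Acta2 at no more than 6.04 RPKM and 10.5 RPKM. The 7 basal and myoepithelial markers summed to 4.25 to 47.5 RPKM in SOX10 high and 3.97 to 41.3 RPKM in SOX10 low libraries. Of the 7 markers, Myh11 and Oxtr were below 1 RPKM in every C3-1-TAg library. The other markers of the 7 each reached 1 RPKM in some library of each group.

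Krt5, the partner of Krt14, was low in most C3-1-TAg libraries. It was at 1.83, 64.9, 1.58, 1.27 and 0.657 RPKM in SOX10 high and 3.02, 0.166, 19.0 and 5.71 RPKM in SOX10 low libraries. SOX10 high replicate 2 and SOX10 low replicate 3 stood above the rest. These are also the libraries with the most Trp63, the basal transcription factor p63. It was at 31.9 and 16.4 RPKM in them, in that order, against at most 2.47 RPKM in the others. The 2 libraries are an alike pair across the SOX10 groups (Pearson correlation 0.967), so they may not be independent. Krt14, at 415 and 451 RPKM in them, was higher in SOX10 high replicate 1 and SOX10 low replicate 2 (776 and 1007 RPKM). The part of Trp63 in the Krt5 levels was not tested. Krt15 was at 1.13, 1.42, 0.544, 1.16 and 2.37 RPKM in SOX10 high and 0.887, 0.518, 8.38 and 1.52 RPKM in SOX10 low libraries. It was low throughout, with SOX10 low replicate 3 highest. Krt6a was at 38.9, 26.6, 13.3, 0.744 and 1.74 RPKM in SOX10 high and 10.8, 126, 22.3 and 8.71 RPKM in SOX10 low libraries, and its range within a group was wider than the distance between groups.

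Of the luminal keratins, Krt18 and Krt7 were the steadiest. Krt18 was at 792, 286, 760, 1029 and 510 RPKM in SOX10 high and 584, 799, 696 and 605 RPKM in SOX10 low libraries. Krt7 was at 345, 349, 455, 451 and 273 RPKM in SOX10 high and 562, 546, 440 and 585 RPKM in SOX10 low libraries. Krt7 lay lower in SOX10 high cells but for an overlap around SOX10 low replicate 3. Krt8 was at 479, 127, 271, 413 and 164 RPKM in SOX10 high and 215, 460, 354 and 219 RPKM in SOX10 low libraries. Krt19 was at 449, 47.0, 33.0, 93.3 and 61.5 RPKM in SOX10 high and 98.4, 442, 525 and 71.7 RPKM in SOX10 low libraries, with 1 high library in SOX10 high and 2 in SOX10 low. Krt23 was at 1.47, 11.5, 0.794, 5.96 and 3.13 RPKM in SOX10 high and 1.14, 0.15, 4.60 and 0.385 RPKM in SOX10 low libraries, low in both groups.

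**Figure D3:**
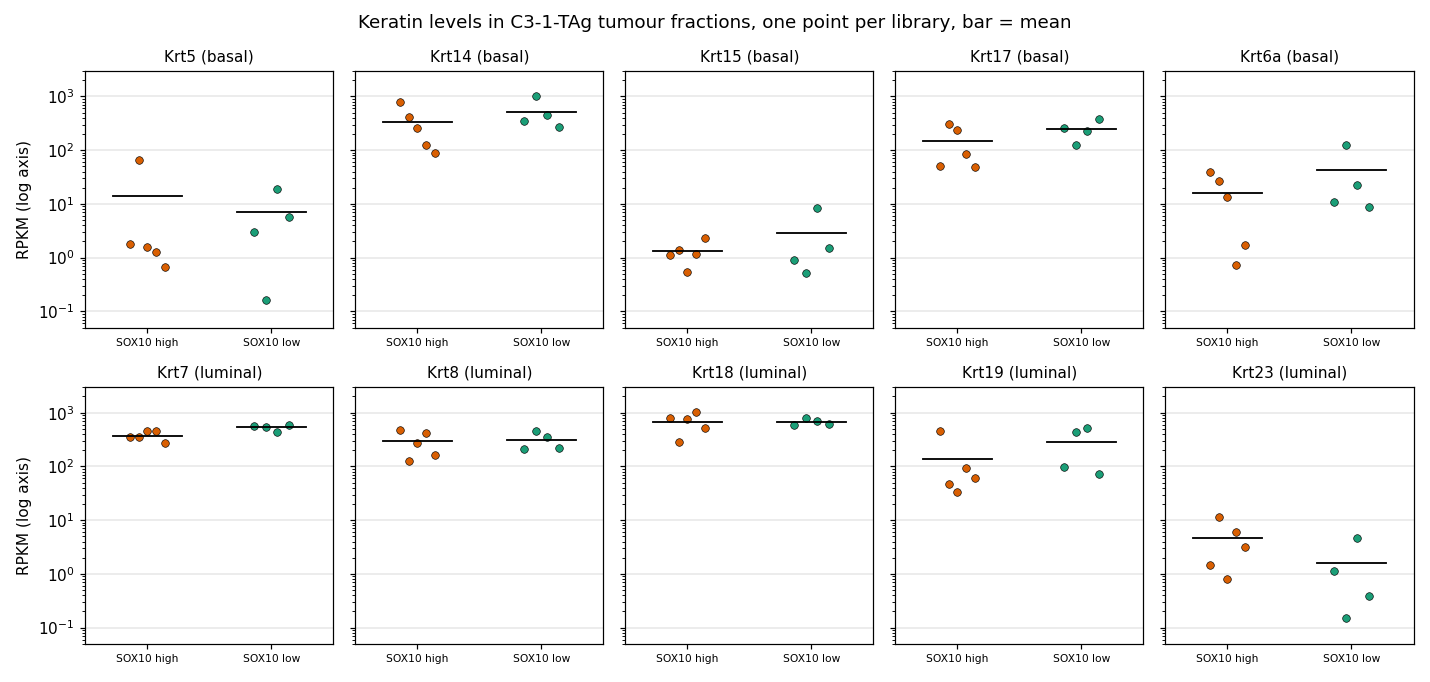
RPKM on a log axis, after taking off an assumed offset of 2, of each keratin in C3-1-TAg SOX10 high (5 points) and SOX10 low (4 points) libraries. Bars are means. The groups overlap for all 10 keratins, and Krt5, Krt15, Krt6a, Krt19 and Krt23 spread over more than a decade within a group.

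None of the 10 keratins passed the test between C3-1-TAg SOX10 high and SOX10 low cells, where 0.0418% of the 11948 genes tested (5 genes) were called, all higher. Every keratin's adjusted p by limma was 1.00, and at an unadjusted p under 0.05 there was 1, Krt7 (log2 fold change -0.53 ± 0.23, unadjusted p = 0.0476). The spread leaves room for large differences: Krt14 had a log2 fold change of -0.87 ± 0.62 SE, Krt17 of -1.06 ± 0.58, Krt5 of -0.16 ± 1.11, Krt6a of -1.35 ± 1.04 and Krt23 of 1.06 ± 0.62. The median was -0.87 over the basal and -0.20 over the luminal keratins, against -0.04 over all genes. The 5 immune markers summed to 7.31 to 91.8 RPKM in SOX10 high and 7.57 to 760 RPKM in SOX10 low libraries. Leaving out any 1 library, or either alike pair across the SOX10 groups, left the count at 0.

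The balance of the 2 kinds of keratin was read per library as the summed RPKM of the 5 basal over that of the 5 luminal genes. The basal keratins made up 52.0% and 53.7% of the 10-gene sum in adult basal, 2.78% and 4.01% in mature luminal, 0.897% and 0.358% in luminal progenitor and 10.9% and 10.9% in fMaSC libraries. In PY230 tumours they made up 76.2% and 63.2% in basal SOX10 high, 1.58% and 2.75% in luminal SOX10 high and 2.09% and 0.964% in luminal SOX10 low libraries. In C3-1-TAg tumours the share was 29.6%, 49.7%, 25.3%, 9.63% and 12.4% in SOX10 high and 29.8%, 35.8%, 26.6% and 30.9% in SOX10 low libraries. The basal share was highest in the basal fractions and lowest in the luminal ones, fMaSC lay between adult basal and luminal cells, and every C3-1-TAg library lay between the PY230 basal and luminal fractions in value, although those tables were normalized separately. The mean log2 ratio was 0.16 ± 0.07 (SD, n = 2) in adult basal, -4.86 ± 0.39 in mature luminal, -7.45 ± 0.94 in luminal progenitor and -3.04 ± 0.0015 in fMaSC libraries. It was 1.23 ± 0.63 in PY230 basal SOX10 high, -5.55 ± 0.58 in luminal SOX10 high and -6.12 ± 0.80 in luminal SOX10 low libraries (n = 2 each), and -1.78 ± 1.29 (n = 5) in C3-1-TAg SOX10 high and -1.18 ± 0.26 (n = 4) in SOX10 low libraries. In mature luminal, luminal progenitor and PY230 luminal SOX10 low cells most of the basal sum was Krt6a. Leaving out Krt15 and Krt6a gave -0.022 in adult basal, -12.08 in mature luminal, -10.47 in luminal progenitor and -9.26 in PY230 luminal SOX10 low cells, so that mature luminal cells and not luminal progenitors were lowest.

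**Figure D4:**
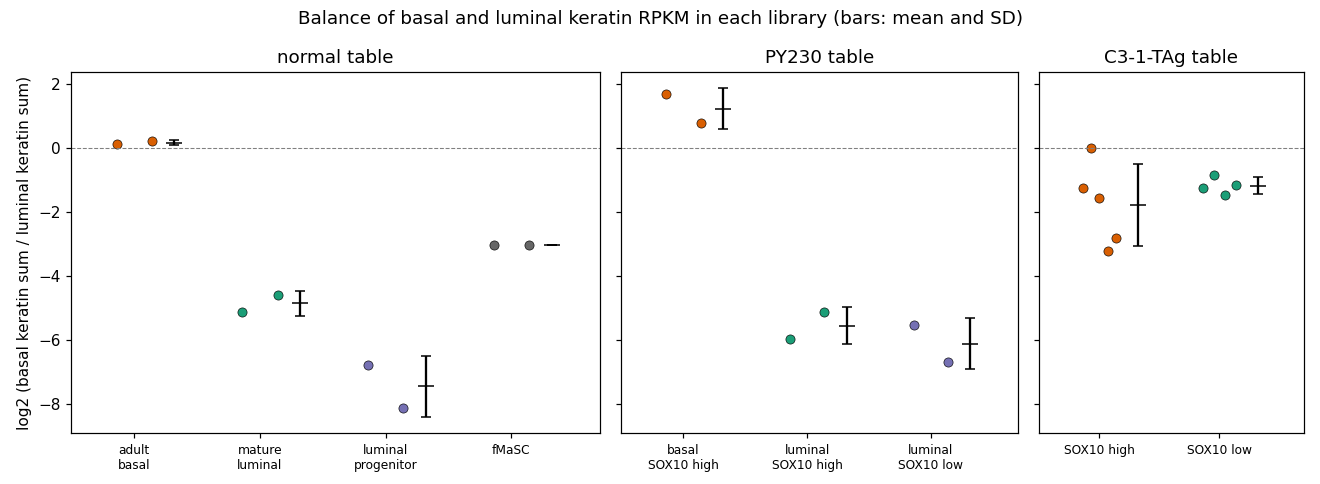
The log2 ratio of summed basal to summed luminal keratin RPKM, one point per library, in the normal, PY230 and C3-1-TAg tables, with mean and SD beside each group. Adult basal and PY230 basal SOX10 high libraries lie above 0, all luminal libraries below -4, and C3-1-TAg libraries between about 0 and -3.23.

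The sum of the 10 genes differed as well. It was 4594 and 2145 RPKM in adult basal, 16031 and 11328 RPKM in mature luminal, 11272 and 17413 RPKM in luminal progenitor and 1501 and 1494 RPKM in fMaSC libraries, so luminal cells held the most keratin message and fMaSC the least. In PY230 tumours it was 1338 and 1487 RPKM in basal SOX10 high, 3270 and 4977 RPKM in luminal SOX10 high and 10176 and 9471 RPKM in luminal SOX10 low libraries, again highest in the SOX10 low luminal cells. C3-1-TAg libraries held 1155 to 2935 RPKM in SOX10 high and 2079 to 3503 RPKM in SOX10 low cells, with overlap.

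Partner keratins were not equally balanced across tables. The tables were made separately, and the part of read length and of shared windows in these ratios was not tested. The mean log2 ratio of Krt5 to Krt14 RPKM was -4.18 ± 0.04 (SD, n = 2) in adult basal and -4.35 ± 0.07 in fMaSC libraries, so Krt14 far exceeded Krt5 in both. In PY230 basal SOX10 high cells it was 1.17 ± 0.47 (n = 2), with Krt5 above Krt14, and it was above 0 in every PY230 library. In C3-1-TAg tumours it was -6.50 ± 2.28 (n = 5) in SOX10 high and -7.39 ± 3.57 (n = 4) in SOX10 low libraries, spread from -8.73 to -2.68 and from -12.57 to -4.57. The lowest of these rests on a Krt5 value of 0.166 RPKM. After 2 was taken off, median Krt5 was 1.58 RPKM in SOX10 high and 4.37 RPKM in SOX10 low libraries. These ratios therefore depend on that step. The mean log2 ratio of Krt8 to Krt18 kept a narrower range, from 0.04 ± 0.35 in adult basal (n = 2) and 0.17 ± 0.07 in fMaSC libraries (n = 2) to -1.27 ± 0.35 in C3-1-TAg SOX10 high (n = 5) and -1.17 ± 0.34 in SOX10 low libraries (n = 4).

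**Figure D5:**
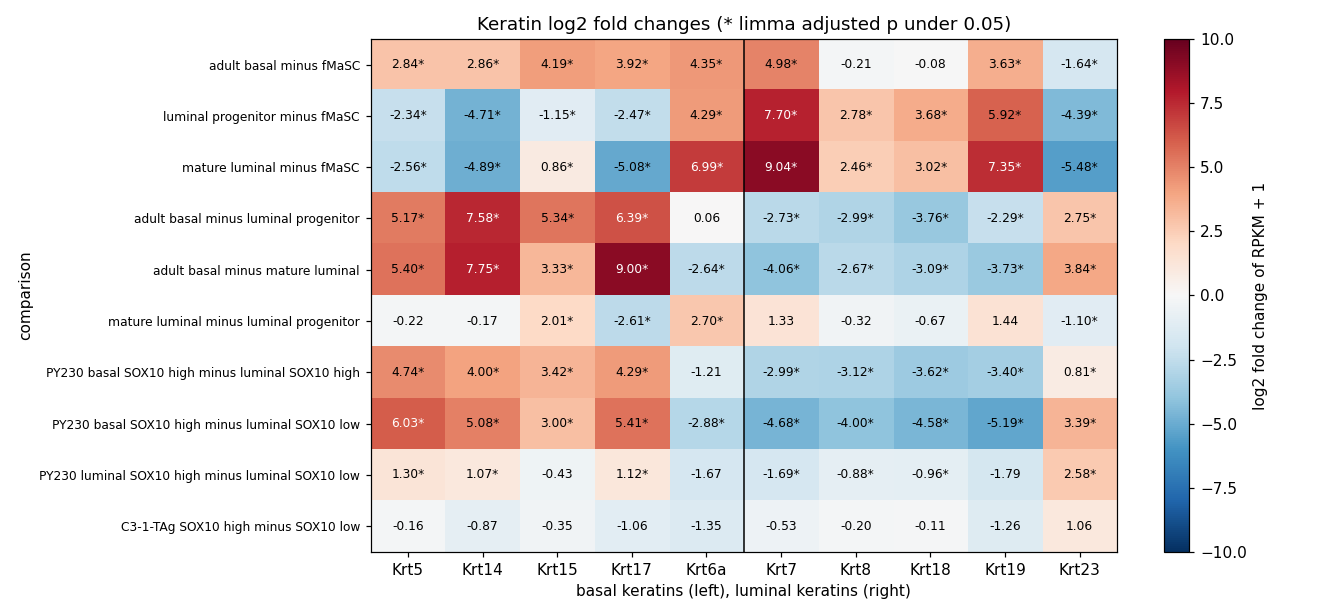
Log2 fold changes of RPKM + 1 for the 10 keratins (columns) in the 10 comparisons (rows), with an asterisk where limma's adjusted p was under 0.05. Basal and luminal keratins take opposite colours in the rows that set basal against luminal cells, except Krt6a and Krt23, and the C3-1-TAg row has no asterisk.

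Other keratin genes were mostly silent. Below 1 RPKM in every library were 30 of the 42 others listed for normal cells, 30 of 45 for PY230 and 31 of 42 for C3-1-TAg tumours. At 10 RPKM or more in at least 2 libraries were Krt4, Krt78 and Krt16 in normal cells and Krt4 in PY230 tumours. Krt4, a type II keratin of stratified mucosa, was at 181 and 64.1 RPKM in adult basal, 1493 and 1006 RPKM in mature luminal, 304 and 175 RPKM in luminal progenitor and 2.54 and 3.02 RPKM in fMaSC libraries. Krt78, a type II keratin, was at 13.3 and 6.45 RPKM in adult basal, 64.8 and 73.9 RPKM in mature luminal, 11.5 and 8.57 RPKM in luminal progenitor and 0 RPKM in both fMaSC libraries. Both were highest in mature luminal cells, as Krt6a was. Krt4 rose in mature luminal cells against luminal progenitors by 2.41 (limma adjusted p = 0.0144) and Krt78 by 2.68 (adjusted p = 0.00237). In PY230 tumours Krt4 was at 0.431 and 1.31 RPKM in basal SOX10 high, 5.20 and 14.4 RPKM in luminal SOX10 high and 29.6 and 21.2 RPKM in luminal SOX10 low libraries, with no overlap, and its log2 fold change was -3.84 in basal SOX10 high against luminal SOX10 low cells (limma adjusted p = 0.000534). Krt16, a type I keratin whose windows overlap Krt14, was at 47.7 and 23.1 RPKM in adult basal and 7.32 to 10.6 RPKM in the other normal libraries. In C3-1-TAg tumours Krt16 and the type II keratin Krt80 passed this level, with overlapping groups, and Krt16 was at 4.43 to 49.2 RPKM in SOX10 high and 11.4 to 48.5 RPKM in SOX10 low libraries.

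Genes of the desmosome, the junction that anchors keratin filaments, moved in both directions. Of 12 tested, 5 were higher and 1 lower in adult basal cells than in luminal progenitors, where 21% of all genes were higher and 14.5% lower. The median log2 fold change of the 12 was -0.13, against 0.08 over all genes. Against mature luminal cells 6 were higher and 3 lower, where 28.8% of all genes were higher and 19.8% lower, and the median was 0.62, against 0.12 over all genes. Plakophilin 1 (Pkp1), a desmosomal plaque protein, was at 84.6 and 95.2 RPKM in adult basal, 2.16 and 3.21 RPKM in mature luminal, 25.0 and 38.5 RPKM in luminal progenitor and 18.0 and 19.6 RPKM in fMaSC libraries. It was highest in adult basal cells and lowest in mature luminal cells. In PY230 tumours 6 of 13 were higher and 2 lower in basal SOX10 high than in luminal SOX10 high cells, where 13.8% of all genes were higher and 28.2% lower. Desmoplakin (Dsp), which links keratin to the plaque, was at 146 and 97.1 RPKM in basal SOX10 high, 38.7 and 33.9 RPKM in luminal SOX10 high and 37.9 and 38.6 RPKM in luminal SOX10 low libraries, and rose by 1.69 (limma adjusted p = 0.00107) against luminal SOX10 high cells. Between the PY230 luminal fractions and between the C3-1-TAg fractions none of 13 and none of 12 passed limma's adjusted threshold, and 0 were under an unadjusted p of 0.05 in either, where 22.6% and 0.0418% of all genes were called.

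Of 13 other intermediate filament genes 6 were tested in normal cells. In adult basal cells 3 were higher and 1 lower than in luminal progenitors (all genes 21% and 14.5%). Against mature luminal cells 4 were higher and 0 lower (28.8% and 19.8%). In PY230 basal SOX10 high cells, of 7 tested, 3 were higher and 1 lower than in luminal SOX10 high cells (13.8% and 28.2%). Against luminal SOX10 low cells 4 were higher and 3 lower (21.8% and 33.4%). Among these genes vimentin (Vim), the filament of mesenchymal cells, took the side of the basal keratins in adult and PY230 cells. It was at 350 and 307 RPKM in adult basal, 2.77 and 7.32 RPKM in mature luminal, 5.68 and 10.5 RPKM in luminal progenitor and 352 and 360 RPKM in fMaSC libraries. Adult basal cells against fMaSC gave a log2 fold change of -0.12 for vimentin (limma adjusted p = 0.808). In PY230 tumours it was at 196 and 193 RPKM in basal SOX10 high, 29.7 and 54.7 RPKM in luminal SOX10 high and 31.2 and 13.5 RPKM in luminal SOX10 low libraries. The 5 fibroblast markers summed to 52.9 to 56.7 RPKM in adult basal, 6.78 to 25.5 RPKM in mature luminal, 13 to 21.0 RPKM in luminal progenitor and 64.3 to 75.6 RPKM in fMaSC libraries, and in PY230 tumours to 139 to 216 RPKM in basal SOX10 high, 68.9 to 128 RPKM in luminal SOX10 high and 46.5 to 89.9 RPKM in luminal SOX10 low libraries. Their part in the vimentin levels was not tested. Synemin (Synm), an intermediate filament protein of muscle, rose in adult basal cells against fMaSC by 2.71 (limma adjusted p = 0.000162).

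By Pearson correlation of log2(RPKM + 1), given as a description over libraries that share their table and groups, the genes most like Krt14 over the 8 normal libraries were Psd2 (0.996), Lrrc8c (0.995) and Ank2 (0.995). Among those most like Krt18 were Gde1 (0.989) and Ctsb (0.986). Over the 9 C3-1-TAg libraries they were Ggact (0.945), Sectm1b (0.945) and Ccdc58 (0.936) for Krt14, and Nsdhl (0.889), Def8 (0.867) and Cdc42ep4 (0.859) for Krt18. No gene was named for both tables.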

How the data were processed

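The authors deposited 3 tables of RPKM per gene. Per the submitters' processing notes, FastQC, HISAT2 2.0.5, StringTie 1.3.1c and the mm9 build were used. Per the labels' protocols, libraries were made with SmartSeq2 (18 PCR cycles) and Nextera XT (10 cycles), which mark no strand and carry no molecular identifiers, and were sequenced from a single end. In the C3-1-TAg table the smallest deposited value above 0 was 2.001 and none lay between 0 and 2. An offset of 2 was therefore assumed and taken off every value above 0, and its origin is not stated. The files used here give no read counts, so no count test or counting interval was made, and the depth of each library is unknown.

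From these RPKM values, genes at 1 RPKM or more in at least 2 libraries (normal, PY230) or 4 libraries (C3-1-TAg) were kept, and log2(RPKM + 1) was fitted within each table with limma 3.58.1 (R 4.3.3) over all groups of the table, without a term for the replicate number. P-values were adjusted over all genes tested. Ratios are of RPKM within a library and have no test. Groups came from the sample titles. The members and gene lists were chosen with earlier results of these data known. All 10 keratins were tested in every comparison, and the plot of log2 fold changes by comparison shows them all. In most comparisons the text quotes fold changes for only some of the 10, so the quoted values are a selection. Other keratins were named at 10 RPKM or more in at least 2 libraries, and 3 genes per likeness list, of which 1 is not reported here; desmosome and filament genes named were chosen after their values were seen. On simulated data with 200 genes changed by 2 on the log2 scale, 64.5% were recovered for adult basal against fMaSC, 93% for PY230 basal SOX10 high against luminal SOX10 high and 86.5% for C3-1-TAg SOX10 high against low, while 2.27%, 7.46% and 5.46% of the genes called were false. The simulation changed only genes with a mean log2 value above 2 and left all others unshifted. In the real data 60.3% of genes were called in adult basal cells against fMaSC, so these rates do not carry over to the real tests. Alternatives varied the pseudocount (0.1, 5), the filter (none, 5 RPKM), the scaling, the groups fitted, the block, the offset and each library in turn. Windows shared between transcripts were counted in GENCODE M21.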

Additional observations from a re-analysis of the deposited data

Results flagged for a closer look

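In C3-1-TAg tumours 4 keratin values stood far from the rest of their group, with a gap to the nearest library that took up most of the group's range. They are Krt5 at 64.9 RPKM in SOX10 high replicate 2, Krt15 at 8.38 RPKM in SOX10 low replicate 3, Krt6a at 126 RPKM in SOX10 low replicate 2 and Krt19 at 449 RPKM in SOX10 high replicate 1. The gap was tested on RPKM in 20 groups (10 keratins, SOX10 high and SOX10 low). Chance alone flags about 1 in 20 groups where values are normally distributed, and RPKM values are skewed. On log2(RPKM + 1) 1 of the 4, Krt5, stood apart in the same way. SOX10 high replicate 1 and SOX10 low replicate 2, which hold the Krt19 and Krt6a values, are the pair with the highest correlation of all C3-1-TAg libraries, and SOX10 high replicate 2 and SOX10 low replicate 3, which hold the Krt5 and Krt15 values, the next highest.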

How the results depend on the processing

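Over all alternatives 1191 keratin log2 fold changes kept direction and side of the threshold, 58 lost a call, 10 gained one and 27 changed sign, none of these called before or after. In adult basal cells against fMaSC Krt8 was 0.043 when quantile-normalized and 0.087 when scaled by median-of-ratios factors (-0.61 to 0.20 with a library left out), and Krt18 0.18 and 0.22 (-0.73 to 0.57). Against luminal progenitors Krt6a was -0.12 and -0.067 (-0.49 to 0.61). In mature luminal cells against luminal progenitors Krt5 ran from -0.48 to 0.035 and Krt14 from -0.68 to 0.34 with a library left out. In C3-1-TAg tumours Krt5 was 0.0088 with a pseudocount of 5 and 0.20 with the replicate block; with libraries left out it ran from -1.13 to 0.51, Krt15 from -0.66 to 0.22, Krt8 from -0.43 to 0.14 and Krt18 from -0.29 to 0.19. The count of keratins called in PY230 luminal SOX10 high against low cells, 7, was 1 with no filter, 3 after quantile normalization and 3 with only the compared groups fitted, and ranged from 1 to 5 when libraries were left out in turn; the cause was not tested. The ratio of basal to luminal keratins without Krt15 and Krt6a turned to -0.022 in adult basal cells, and was -12.08 in mature luminal, -10.47 in luminal progenitor, -3.11 in fMaSC, -6.65 in PY230 luminal SOX10 high and -9.26 in luminal SOX10 low cells. With Krt5, Krt14 and Krt17 over Krt8, Krt18 and Krt19 it was -11.88, -10.40, -3.04, -6.53 and -9.11 in the same groups and -0.69 in C3-1-TAg SOX10 low cells. As a difference of mean log2(RPKM + 1) it was -6.40 in mature luminal, -2.19 in fMaSC, -4.82 in PY230 luminal SOX10 high and -2.05 in C3-1-TAg SOX10 low cells.

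Counts over all genes moved by over 1.5 times in these cases. Luminal progenitors against fMaSC gave 6349, and 3847 and 3919 without fMaSC replicate 1 or 2. Adult basal cells against luminal progenitors gave 4455, but 2252 with only the compared groups and 2667 and 2529 without luminal progenitor replicate 1 or 2. Adult basal against mature luminal cells gave 6099, and 3650 without mature luminal replicate 1. Mature luminal cells against luminal progenitors gave 2770, and 954 to 1474 with a library left out. PY230 basal SOX10 high against luminal SOX10 high cells gave 5513, and 3451 without basal SOX10 high replicate 1. PY230 luminal SOX10 high against low cells gave 2974, 1826 with no filter, and as few as 461 with a library left out. The C3-1-TAg count was 5, with 0 to 11 under the alternatives, among them 2 with a pseudocount of 0.1, 0 with no filter, 3 on the values as deposited and 0 with the replicate block.

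The labels tie same-numbered libraries by nothing but the number. Their deviations from the group means correlated at -0.34 to 0.20 in C3-1-TAg pairs, where no paired SOX10 high library correlated best with its own number. Between normal or PY230 groups they correlated at -0.26 to 0.30. With 2 libraries per group the deviations are mirror images, so any correlation above 0 makes the same number the better match. That held in all normal comparisons, which reuse the same groups (0.000386 to 0.22, highest for adult basal against mature luminal cells). In the comparisons with fMaSC the correlation was at most 0.00820. The same number was also the better match for PY230 basal against luminal SOX10 high (0.30), but not against luminal SOX10 low cells. Whether same-numbered libraries shared a preparation was not tested. With the replicate number as a block, 3 keratins rather than 4 were called in mature luminal cells against luminal progenitors and 8 rather than 7 in PY230 luminal SOX10 high against low cells, and no other count of keratins changed. With the numbers of the PY230 luminal SOX10 low libraries crossed, an alternative added after seeing the data, the counts were 9 against luminal SOX10 high and 10 against basal SOX10 high cells. The 2 alike C3-1-TAg pairs were also left out only after seeing the data, and 0 genes were then called in either case. With 2 libraries in most groups and no read totals, the spread within groups and the precision of values near 0 are poorly known.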
